A study of Mus musculus with 12 samples.

Results

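Neuropeptide precursor genes encode the proteins from which signalling peptides of neurons are cut. Members were chosen by name, with earlier results of these data known. They are 10 genes (Npy, Sst, Cck, Tac1, Penk, Pdyn, Vip, Gal, Cartpt and Crh), found on the arrays through the gene name of each probe. They had 11 probes among 39429, with 2 probes for Pdyn and 1 for each of the other genes. Genes entered the tests if some group showed the sample signal well above background on each of its 3 arrays, which left 9 members among 22320 genes tested. Vip did not pass. Npy, Tac1 and Crh passed only through enriched cells, in which every array measured them, so their being tested is not independent of a higher signal there.

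All cells derived from Actin-eGFP C57BL/6 mouse embryonic stem cells (mESC) that had been taken through embryoid bodies and serum-free neural selection. The groups had 3 biological replicates each per the labels. Step 5 enriched cells were PSA-NCAM-enriched cells of the final stage, grown for 7 days without bFGF, with B27 supplement and 200 µM ascorbic acid, and step 5 control cells were cells of that stage without enrichment. Step 4 enriched cells were PSA-NCAM-enriched neural precursors grown for 5 days with N2 supplement, laminin and 10 ng/ml bFGF, and step 4 control cells were such precursors without enrichment. Enrichment used an antibody against PSA-NCAM, a sialylated adhesion molecule of immature neurons, on a magnetic column after dead cells had been removed. The labels do not say when the step 5 cells were sorted or whether control cells went through dead cell removal. Each array carried 1 sample in Cy5 and mESC RNA of the same strain in Cy3, and values are log2 ratios of sample to mESC. Replicates 1, 2 and 3 lay on slides 1, 2 and 3.

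Each precursor enters the secretory pathway, is packed into dense-core vesicles and is cut at pairs of basic residues by prohormone convertases, after which carboxypeptidase E trims the ends and many peptides are amidated. In the forebrain, Npy, Sst, Cck and Vip mark classes of inhibitory interneurons, Penk and Tac1 mark projection neurons of the striatum together with Pdyn, and Crh, Gal and Cartpt are well known from the hypothalamus. The peptides act on G-protein-coupled receptors, and their genes are commonly used as signs of neuronal subtype and maturity.

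The sequences bearing on what was measured are those of coding probes that contain a cleavage site, and 3 of them are shown with the Lys-Arg codons in capitals. The probes of Cck and Vip also hold a Lys-Arg pair in an open reading frame and are not shown. The Npy probe (mm9, chr6:49773743-49777505, plus strand) and the Cartpt probe (mm9, chr13:100668967-100669956, minus strand) are 60 bases long, and their ends lie 3763 and 990 bases apart on the genome, so each spans an intron. The Npy probe reads through the end of the NPY peptide and its cleavage site, and the Cartpt probe starts at a cleavage site. The Pdyn probe shown (mm9, chr2:129513968-129514027, minus strand) covers a cleavage site of the precursor, and it is the probe that gave no signal.
Npy probe: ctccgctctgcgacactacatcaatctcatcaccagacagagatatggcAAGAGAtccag
Cartpt probe: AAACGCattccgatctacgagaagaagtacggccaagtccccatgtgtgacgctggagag
Pdyn probe without signal: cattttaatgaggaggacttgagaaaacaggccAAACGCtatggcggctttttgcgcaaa

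Promoters are shown because the members include textbook targets of CREB, the factor that binds the cyclic AMP response element TGACGTCA. Any part of CREB in the values of these arrays was not tested. RefSeq's table for GRCm38.p6 held 9 promoters for 8 members, 2 of them for Pdyn, and the 250 bases before each start were searched on both strands. It held no promoter of Penk or Crh, so those genes were not searched. The full element stood in the promoters of Sst, at base -48 from the start, and Cartpt, at base -112, against 1.55% of 32851 promoters in the table. Its core TGACG, read as CGTCA on the other strand and contained in the full element, stood in 5 of the 9, those of Sst, Cartpt, Tac1, Cck and Vip, against 17.8% of all promoters. These letters were not found in this window for Npy, Gal or Pdyn. A match describes the sequence and not a site in use. Capitals mark the element or its core in 100 bases from the strand of the gene: Sst chr16:23890845-23890944 (minus strand), Cartpt chr13:99900741-99900840 (minus), Tac1 chr6:7554961-7555060 (plus), Cck chr9:121495695-121495794 (minus) and Vip chr10:5639094-5639193 (plus).
Sst promoter: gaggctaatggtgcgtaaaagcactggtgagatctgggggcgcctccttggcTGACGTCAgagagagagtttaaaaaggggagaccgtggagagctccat
Cartpt promoter: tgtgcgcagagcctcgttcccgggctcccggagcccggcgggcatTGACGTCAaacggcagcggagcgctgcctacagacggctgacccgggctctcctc
Tac1 promoter: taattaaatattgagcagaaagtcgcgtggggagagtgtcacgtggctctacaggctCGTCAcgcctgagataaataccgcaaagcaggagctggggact
Cck promoter: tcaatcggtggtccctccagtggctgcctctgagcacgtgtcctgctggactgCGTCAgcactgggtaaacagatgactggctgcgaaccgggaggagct
Vip promoter: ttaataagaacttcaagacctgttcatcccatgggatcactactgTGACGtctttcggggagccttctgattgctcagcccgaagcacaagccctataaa

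Cy5 was well above background for 25605 to 29078 probes per array and Cy3 for 23428 to 25688. The mean correlation of an array to the others of its group was 0.91 to 0.95 for enriched arrays and 0.71 to 0.84 for control arrays. In each control group the array of slide 2 had the lowest value, 0.71 at step 5, where the others had 0.79 and 0.84, and 0.76 at step 4, where the others had 0.79 and 0.82. Slide 2 was also scanned on another day and read with another version of the scanner software. The members' calls between enriched and control cells are therefore also given without those 2 arrays.

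At step 5, Npy, Sst, Cck, Tac1, Penk and Pdyn were higher in enriched than in control cells, by 2.33- to 5.13-fold. Gal, Cartpt and Crh did not pass the test. Of the 9 members tested, 6 were called higher and 0 lower at an adjusted p below 0.05 (limma, Benjamini-Hochberg over 22320 genes). Npy and Tac1 among those called, and Crh among those not called, had passed the filter only through enriched cells, so this count is not independent of the filter. The members were also chosen with earlier results known, so setting their count beside the shares of all genes is no independent test. Over all genes 20.3% were called higher and 20.2% lower. Enriched and control arrays did not overlap for the 6 genes called, all higher, and for Gal, lower, where 25.6% of all genes were higher without overlap and 25.6% lower. In these bulk samples, fewer cells of a type and less RNA per cell cannot be told apart. Neuron markers moved with these genes: 9 of 10 rose, and their summed Cy5 signal was 117117 to 128374 in step 5 enriched cells and 21768 to 39469 in step 5 control cells. Their part in the result was not tested.

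**Figure D1:**
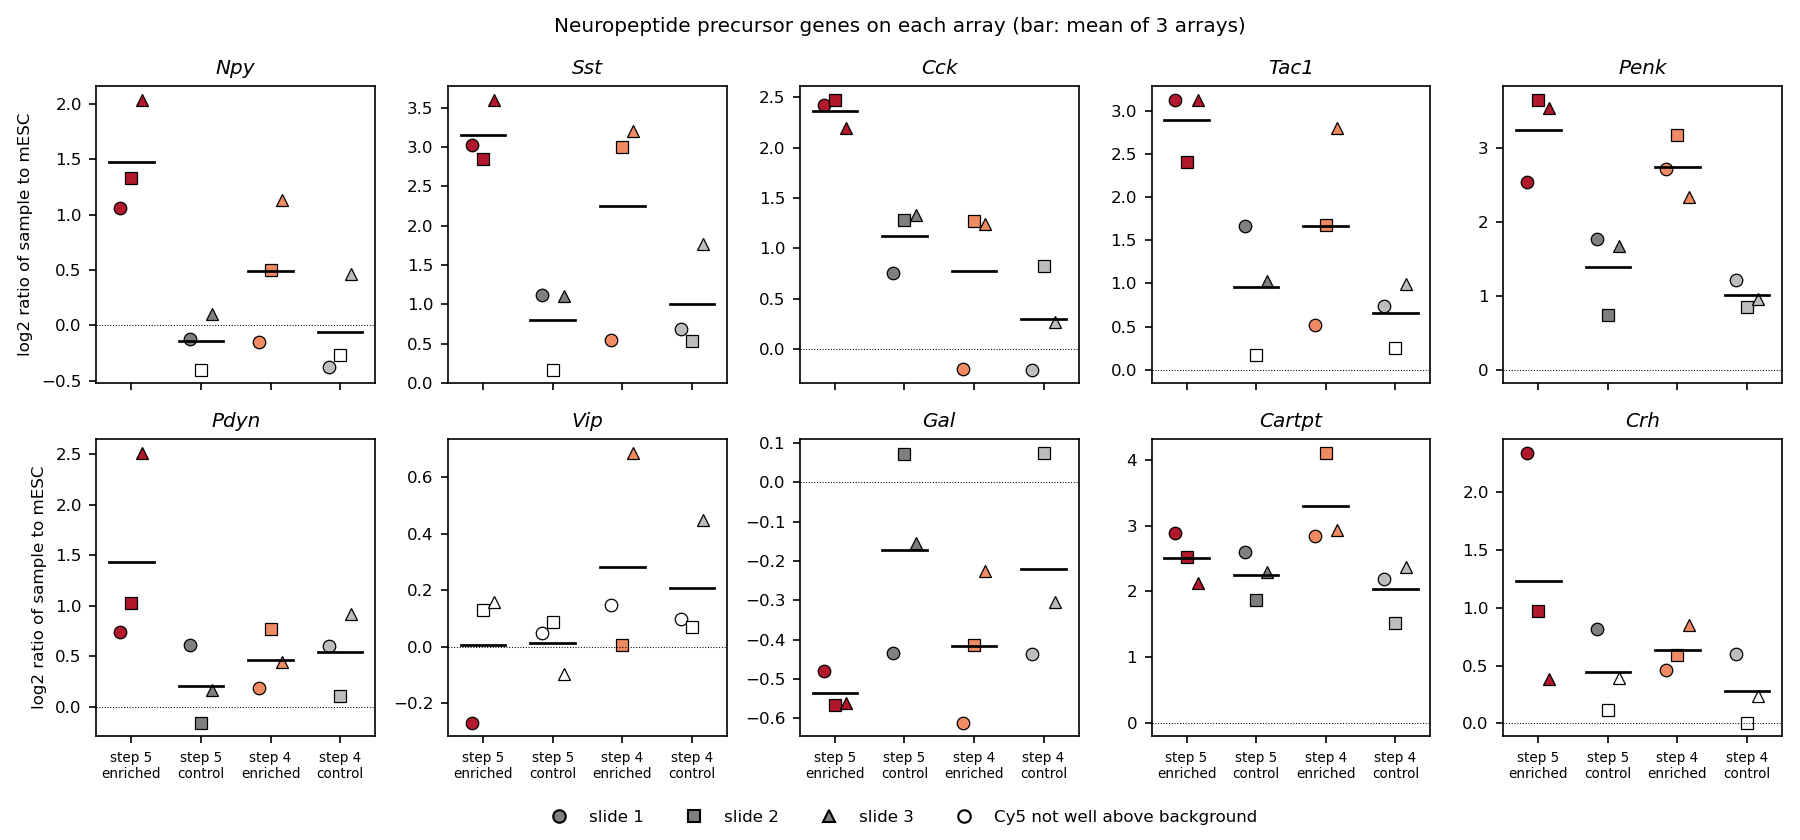
Log2 ratio of sample to mESC for each of the 10 genes on each array, by group, with the slide as the symbol, an open symbol where Cy5 was not well above background, and a bar at the mean of 3 arrays. The vertical scale differs between genes. For Sst, the 3 step 5 enriched arrays sit between 2.85 and 3.61, above all 3 step 5 control arrays.

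Sst, whose peptide somatostatin inhibits hormone release and marks a class of GABAergic interneurons, had log2 ratios of 3.02, 2.85 and 3.61 in step 5 enriched cells, against 1.12, 0.17 and 1.11 in step 5 control cells. All enriched arrays lay above all control arrays, and the control array of slide 2 was not well above background. The difference was 2.36 ± 0.64 (SE, n = 3 each, adjusted p = 0.0138), or 5.13-fold.

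Tac1, the precursor of substance P and neurokinin A, had 3.13, 2.41 and 3.13 in step 5 enriched cells, against 1.67, 0.17 and 1.03 in step 5 control cells. The groups did not overlap, and the control array of slide 2 was not well above background. The difference was 1.93 ± 0.53 (SE, n = 3 each, adjusted p = 0.0158).

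Penk, the precursor of the enkephalins, had 2.54, 3.66 and 3.54 in step 5 enriched cells, against 1.78, 0.74 and 1.67 in step 5 control cells. The difference was 1.85 ± 0.35 (SE, n = 3 each, adjusted p = 0.00238), with a smaller gap on slide 1 (0.76) than on slides 2 (2.92) and 3 (1.87). Npy, whose peptide stimulates feeding and is made by interneurons that often also make somatostatin, had 1.06, 1.33 and 2.04 in step 5 enriched cells, against -0.12, -0.40 and 0.10 in step 5 control cells. The groups did not overlap. Cy5 was well above background on 2 of 3 control arrays, and Cy3 on 9 of 12 arrays, so Npy was not tested against mESC. The difference was 1.62 ± 0.35 (SE, n = 3 each, adjusted p = 0.00503).

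Cck, the cholecystokinin gene, had 2.42, 2.48 and 2.19 in step 5 enriched cells, against 0.75, 1.28 and 1.33 in step 5 control cells. It was the member with the closest agreement between enriched arrays among the 6 called (SD 0.15), and its difference was 1.24 ± 0.38 (SE, n = 3 each, adjusted p = 0.0248). Pdyn, the precursor of the dynorphins, had 0.74, 1.03 and 2.51 in step 5 enriched cells, against 0.61, -0.16 and 0.17 in step 5 control cells. Replicate 3 stood far above the other enriched arrays, and replicate 1 exceeded its slide's control by only 0.13. The difference was 1.22 ± 0.42 (SE, n = 3 each, adjusted p = 0.0381). The Pdyn probes disagreed: the tested one exceeded background clearly on all 12 arrays in both channels, and the coding probe printed above did so on 0 arrays in either channel.

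Crh, whose peptide drives the release of corticotropin from the pituitary, had 2.34, 0.97 and 0.38 in step 5 enriched cells, against 0.82, 0.12 and 0.39 in step 5 control cells. The groups overlapped through enriched replicate 3, Cy5 was well above background on 1 of 3 control arrays, and the difference of 0.79 had an adjusted p of 0.152. Gal, the galanin gene, had -0.48, -0.57 and -0.56 in step 5 enriched cells, against -0.43, 0.07 and -0.15 in step 5 control cells. All enriched arrays were below all control arrays, yet the difference of -0.36 ± 0.17 did not pass (SE, n = 3 each, adjusted p = 0.109). Cartpt, the precursor of the CART peptides, had 2.88, 2.52 and 2.12 in step 5 enriched cells, against 2.59, 1.87 and 2.29 in step 5 control cells. The groups overlapped, and the difference of 0.26 lay within the spread (95% interval -0.54 to 1.06, adjusted p = 0.606).

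Several of the step 5 calls rested on single arrays. Without step 5 enriched replicate 3, Sst was at 2.14 (adjusted p = 0.052), Tac1 at 1.81 (0.0533) and Pdyn at 0.68 (0.102), and Crh was at 1.21 and passed (0.0344). Without step 5 control replicate 2, Tac1 was at 1.54 (0.0582) and Pdyn at 1.04 (0.113), and without step 5 control replicate 3 Pdyn was at 1.20 (0.0848). The call of Cck was lost without step 5 control replicate 1 (1.06, adjusted p = 0.0805), step 5 enriched replicate 1 (1.22, 0.0628) or step 5 enriched replicate 2 (1.19, 0.0659), and Gal passed without step 5 control replicate 1 (-0.49, 0.049). Pdyn also failed by a small margin without step 4 control replicate 1 (adjusted p = 0.0507) or step 4 enriched replicate 3 (0.0506), which enter only the pooled spread. Without both control arrays of slide 2, 3 members were called, Npy, Cck and Penk, and 7846 genes in all, against 9027 with all arrays. Without slide 2, 5769 genes were called, and among the members only Penk, at 1.31 (adjusted p = 0.0316). Sst, Tac1 and Npy then kept differences of 2.20, 1.78 and 1.56. Penk and Npy kept their calls when any 1 array was left out.

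The size of several step 5 differences also depended on the background correction and scaling. From the deposited log2 values, Npy was at 2.95 (adjusted p = 0.0271), Tac1 at 3.29 (0.0305), Pdyn at 1.94 (0.0183) and Crh at 3.11 (0.0582), each more than 1.5 times the value above. Cck was at 1.49 in those values and did not pass (adjusted p = 0.112). With quantile-normalized ratios Sst was at 1.47 (adjusted p = 0.124), Tac1 at 1.02 (0.232), Pdyn at 0.77 (0.208) and Cck at 0.36 (0.603), and none of these 4 passed.

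**Figure D2:**
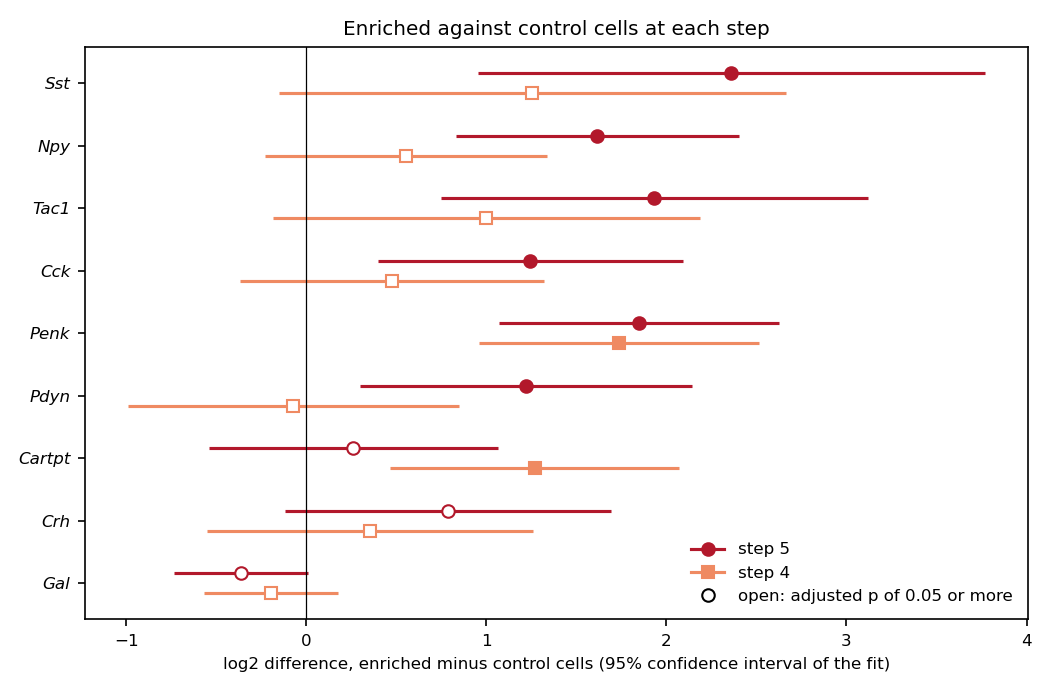
Log2 difference of enriched minus control cells for the 9 genes tested, at step 5 (circles) and step 4 (squares), with the 95% confidence interval of the fit. Filled symbols have an adjusted p below 0.05. At step 5, 6 genes are filled, and at step 4 only Penk and Cartpt.

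At step 4, the precursor stage, Penk and Cartpt were higher in enriched than in control cells, by 3.33- and 2.41-fold. Of the 9 members tested, 2 were called higher and 0 lower, where 15.0% of all genes were called higher and 16.2% lower. These were also the members whose groups did not overlap, as for 22.1% of all genes that were higher. Penk had 2.72, 3.17 and 2.33 in step 4 enriched cells, against 1.21, 0.84 and 0.96 in step 4 control cells. The groups did not overlap, and the difference of 1.74 ± 0.35 (SE, n = 3 each, adjusted p = 0.00524) was close in size to that at step 5. Cartpt had 2.84, 4.11 and 2.94 in step 4 enriched cells, against 2.19, 1.52 and 2.37 in step 4 control cells. Every enriched array was above every control array, and the difference was 1.27 ± 0.36 (SE, n = 3 each, adjusted p = 0.0237). Slide 2 held the highest enriched and the lowest control value of Cartpt, and its gap was 2.60 against 0.65 and 0.56 on slides 1 and 3. Without step 4 enriched replicate 2, Cartpt was at 0.86 (adjusted p = 0.0753), and without step 4 control replicate 2 at 1.01 (0.0919). Penk alone was then called, as it was without both control arrays of slide 2 or without slide 2. Over all genes the calls were 4579 and 4341 in the first 2 fits, against 6950 with all arrays. They were 5498 without both control arrays of slide 2 and 3018 without slide 2.

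Step 4 enriched replicate 1 stood apart for Sst, Tac1 and Cck, and also for Npy, given below. Sst had 0.55, 3.01 and 3.21 in step 4 enriched cells, against 0.69, 0.54 and 1.77 in step 4 control cells. Tac1 had 0.52, 1.67 and 2.80 in step 4 enriched cells, against 0.74, 0.25 and 1.00 in step 4 control cells. Cck had -0.20, 1.27 and 1.24 in step 4 enriched cells, against -0.21, 0.82 and 0.26 in step 4 control cells. For each of these genes enriched replicate 1 lay among the control arrays, while replicates 2 and 3 were above every control array. The same array had the lowest sum of neuron markers in its group, 49498 against 145271 and 155585 on replicates 2 and 3. The step 4 control cells had 22995 to 48745. With all arrays the differences were 1.25 for Sst (adjusted p = 0.16), 1.00 for Tac1 (0.182) and 0.48 for Cck (0.377). With array weights Sst was at 1.53 and passed (adjusted p = 0.0339), and the deposited log2 values gave 2.70 for Tac1 (0.0763) and 1.00 for Cck (0.302), which did not pass. Without step 4 enriched replicate 1 they were 2.11 (0.006), 1.57 (0.0312) and 0.96 (0.0274), and 5 members were called. That array was singled out by its low values of these same genes. Larger differences without it therefore follow from the choice and are no support for them. Over all genes, leaving out any 1 array gave 4341 to 7712 calls at step 4, against 6950 with all arrays.

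Npy had -0.15, 0.50 and 1.13 in step 4 enriched cells, against -0.38, -0.27 and 0.46 in step 4 control cells. The groups overlapped, but the enriched array was the higher on each of the 3 slides. The difference of 0.55 had an adjusted p of 0.263 without the slide as a block and 0.0403 with it, a fit that called 19.8% of all genes higher. Crh (0.35, adjusted p = 0.553), Gal (-0.20, 0.41) and Pdyn (-0.07, 0.915) had overlapping groups. Pdyn was at 0.19, 0.77 and 0.45 in step 4 enriched cells, against 0.60, 0.11 and 0.92 in step 4 control cells.

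In enriched cells, Cck was the member called between the steps, 3.02-fold higher at step 5. Its difference was 1.60 ± 0.38 (SE, n = 3 each, adjusted p = 0.0353), with all step 5 arrays above all step 4 arrays, as for 14.4% of all genes. That was 1 member called higher of 9 and 0 lower, where 3.96% of all genes were called higher and 2.46% lower. Npy was 0.98 higher at step 5, on each of the 3 slides. Its adjusted p was 0.135 without the slide as a block and 0.0147 with it, which made 2 members called, beside 6.54% of all genes called higher in that fit. Tac1 (1.23, adjusted p = 0.213), Pdyn (0.96, 0.21), Sst (0.90, 0.455), Crh (0.60, 0.444) and Penk (0.50, 0.453) had positive differences that did not pass. Cartpt was at -0.79 (adjusted p = 0.237) and Gal at -0.12 (0.738).

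The call of Cck between the steps was lost on leaving out any of 6 arrays, with adjusted p-values of 0.0534 to 0.0971. These were all 3 step 5 enriched arrays (replicate 1, 1.57; replicate 2, 1.54; replicate 3, 1.68), step 4 enriched replicates 1 (1.11) and 2 (1.84), and step 4 control replicate 3, which left the difference at 1.60. It was lost too without slide 2, at 1.79 (adjusted p = 0.142). This comparison shares its step 5 arrays with that of enriched against control cells at step 5. In it, 4 of 7 astrocyte markers and 2 of 7 oligodendrocyte markers were higher at step 5 (5 of 7 with the slide as a block). Among all genes 3.96% were called higher between the steps in enriched cells, or 6.54% with the slide as a block. The astrocyte sums were 47665 to 143296 in step 5 enriched and 11435 to 27315 in step 4 enriched cells, and the oligodendrocyte sums 43628 to 60793 and 6703 to 11349. Their part in the result of Cck was not tested.

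In control cells, no member was called between the steps, and neither was any other of the 22320 genes (0%). At an unadjusted p below 0.05, 0 of 9 members and 8.59% of all genes passed. Cck was nearest among the members, with 0.75, 1.28 and 1.33 in step 5 control cells, against -0.21, 0.82 and 0.26 in step 4 control cells. It was the higher at step 5 on each of the 3 slides, by 0.83 (adjusted p = 0.593). The other members lay between -0.33 (Pdyn) and 0.39 (Penk).

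The size of the enrichment difference was not shown to differ between the steps for any member. No gene passed that test (0%), with 0 of 9 members and 7.05% of all genes at an unadjusted p below 0.05. The step 5 difference minus the step 4 difference was 1.29 ± 0.59 for Pdyn, 1.11 ± 0.90 for Sst, 1.06 ± 0.50 for Npy and 0.93 ± 0.76 for Tac1 (SE, n = 3 arrays in each of 4 groups). These 4 were above 0 on each of the 3 slides. Cartpt was below 0 on each slide, at -1.01 ± 0.51, and Penk was at 0.11 ± 0.50 (SE). The 95% intervals of these 6 members include 0.

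**Figure D3:**
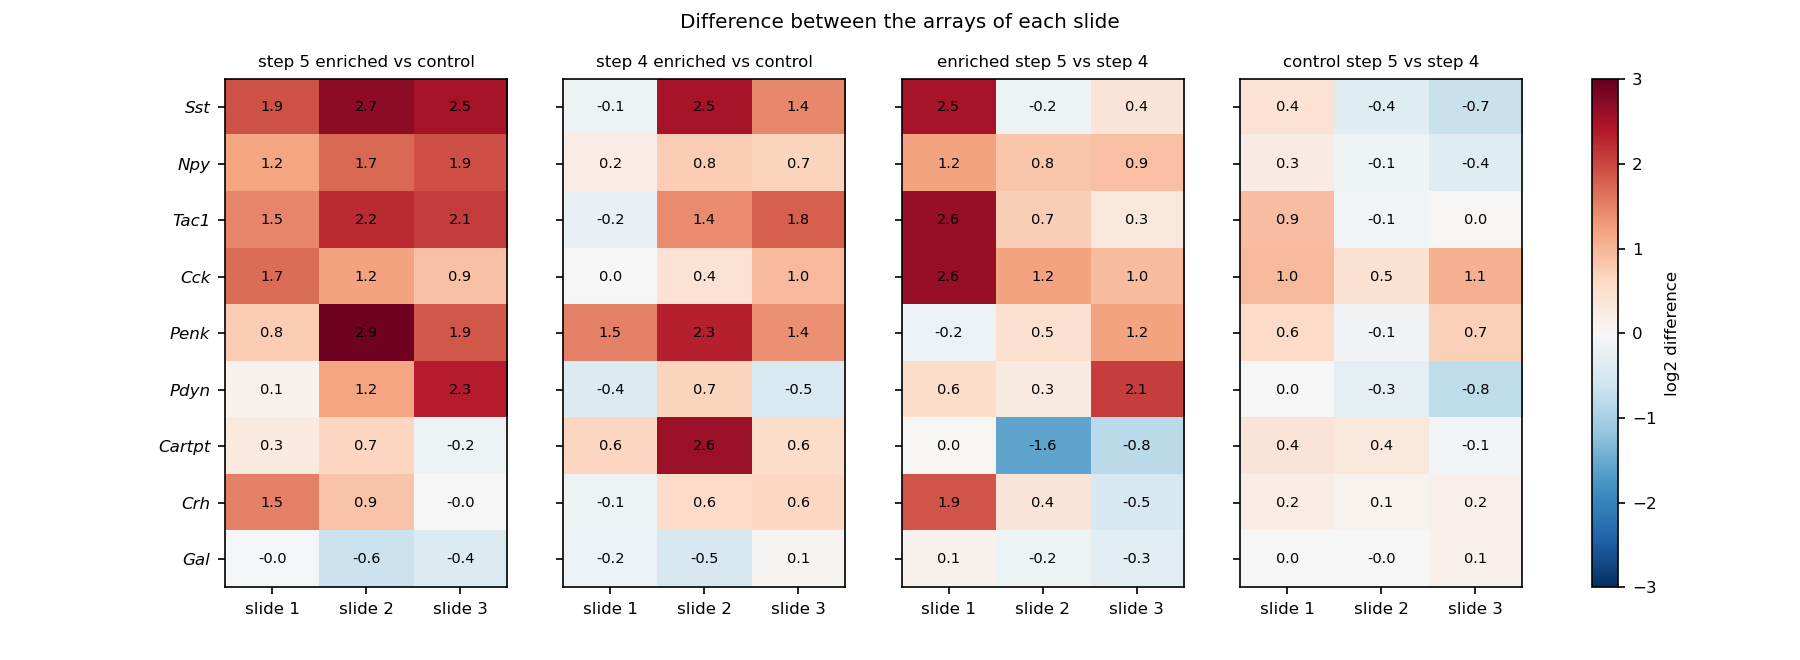
Log2 difference between the 2 arrays of each slide, for 9 genes (rows) and slides 1 to 3 (columns), in 4 comparisons, red above 0 and blue below. Penk is above 0 on each slide for enriched against control cells at both steps, and the step 5 minus step 4 values of Sst and Tac1 in enriched cells are largest on slide 1, at 2.48 and 2.62.

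Across the 4 groups, the order of mean ratios was step 5 enriched, step 4 enriched, step 5 control, step 4 control for Penk, Tac1 and Crh. For Penk these means were 3.24 ± 0.62, 2.74 ± 0.42, 1.40 ± 0.57 and 1.01 ± 0.19 (SD, n = 3 each). Its enriched groups did not differ beyond their spread, nor did its control groups, and enriched and control cells differed in the fit at both stages. Npy and Sst had the same order for the enriched groups, with control groups that lay within their spread of each other. For Cck the order was step 5 enriched (2.37 ± 0.15), step 5 control (1.12 ± 0.32), step 4 enriched (0.77 ± 0.84) and step 4 control (0.29 ± 0.52; SD, n = 3 each). Between its neighbours in that order, step 5 control and step 4 enriched cells overlapped, as did both step 4 groups. Cartpt was highest in step 4 enriched cells, at 3.30 ± 0.71, followed by step 5 enriched (2.51 ± 0.38), step 5 control (2.25 ± 0.36) and step 4 control cells (2.03 ± 0.45; SD, n = 3 each). Gal ran the other way, with its lowest mean in step 5 enriched cells (-0.54 ± 0.05) and its highest in step 5 control cells (-0.17 ± 0.25; SD, n = 3 each).

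Against mESC, 4 members were measured in both channels on all 12 arrays, Penk, Cck, Pdyn and Gal. Penk was higher than in mESC in all 4 groups, by 9.48-fold in step 5 enriched, 2.63-fold in step 5 control, 6.69-fold in step 4 enriched and 2.01-fold in step 4 control cells. Cck was higher in step 5 enriched (5.15-fold), step 5 control (2.17-fold) and step 4 enriched cells (1.70-fold), and in step 4 control cells its difference of 0.29 did not pass (adjusted p = 0.407). Pdyn was higher in step 5 enriched cells alone, by 2.69-fold. Gal was lower in both enriched groups, by 1.45-fold at step 5 (adjusted p = 0.00186) and 1.33-fold at step 4 (adjusted p = 0.00897), and did not pass in step 5 control (-0.17, 0.253) or step 4 control cells (-0.22, 0.158). These were 10 of 16 tests called. The mESC RNA was in Cy3 on all 12 arrays, so these tests leave out the spread of mESC themselves, and dye bias was not balanced. Before normalization, the Cy5 signal of Gal was above its Cy3 signal on every enriched array, so its lower ratios rest on the normalization. Over 18063 genes, the shares called in either direction were 74.1% in step 5 enriched, 48.3% in step 5 control, 70.3% in step 4 enriched and 43.0% in step 4 control cells.

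Tac1 and Crh were not well above background in mESC on any of the 12 arrays, so their ratios to mESC are bounds. Each is the mean sample signal over the higher of the dimmest signal well above background and the probe's own Cy3 signal, with no dye swap to balance the dyes. On the mean of 3 arrays, Tac1 was at least 7.41-fold higher in step 5 enriched and 3.16-fold in step 4 enriched cells. On the same basis Crh was at least 2.34-fold higher in step 5 enriched and 1.46-fold in step 4 enriched cells. These bounds leave out the spread between arrays, and all but that of Crh at step 4 equal the mean ratio itself. The step 5 enriched arrays of Crh had log2 ratios of 2.34, 0.97 and 0.38, against a mean of 1.23. In each control group Cy5 was well above background on 2 of 3 arrays for Tac1 and on 1 of 3 for Crh, and no bound is given there.

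For Sst the mESC channel itself was not constant, although the mESC RNA is described as a common reference. Its Cy3 net signal (spot minus local background, in scanner units) was 50.6, 25.5 and 82.9 on the step 5 enriched arrays and 31.0 and 57.2 on step 4 enriched replicates 2 and 3. These are the 5 arrays on which Cy5 was 1636 to 3432. On the other 7 arrays Cy5 was 40.6 to 328.4, and Cy3 was 1.5 to 21. Penk, too, had Cy3 of 111.7 to 141.8 on enriched arrays and 80.7 to 115.8 on control arrays, and these values enter its ratios to mESC. The part of the Cy5 signal in this was not tested for either gene. From the Cy5 channel alone, the step 5 difference of Sst was 3.17 (adjusted p = 0.0149).

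Vip, whose peptide marks another interneuron class, was well above background in Cy5 on 4 of 12 arrays. These were step 5 enriched replicate 1 (net signal 72.6), step 4 enriched replicates 2 (96) and 3 (74.7) and step 4 control replicate 3 (46.1), and the other 8 arrays had 4.4 to 17.6. On step 5 enriched replicate 1 and step 4 enriched replicate 2 the mESC channel was also well above background, so their log2 ratios were -0.27 and 0.01. No group measured Vip on all of its arrays, and the step 5 control cells measured it on 0 of 3.

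**Figure D4:**
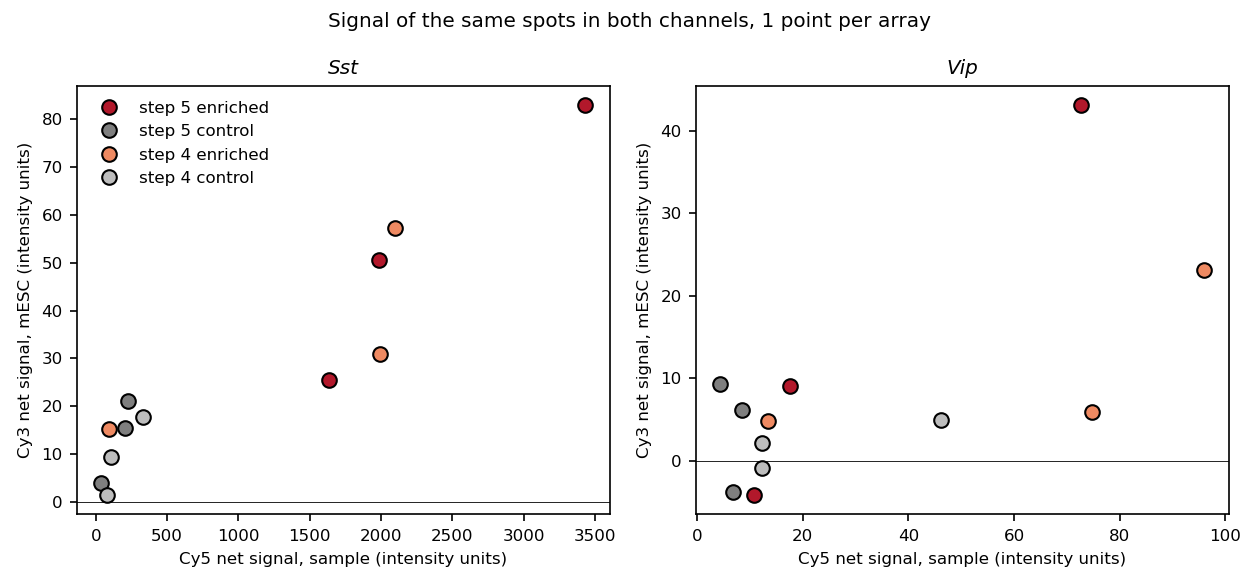
Cy3 net signal of mESC against Cy5 net signal of the sample for the Sst and Vip probes, 1 point per array, in scanner intensity units. For Sst the 5 arrays with Cy5 of 1636 to 3432 have Cy3 of 25.5 to 82.9, above the other 7 arrays, and for Vip most arrays lie near 0 in both channels.

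Over the 12 arrays, Npy, Sst and Tac1 varied most alike among the members. Pearson's r was 0.93 between Npy and Sst, 0.92 between Sst and Tac1 and 0.90 between Npy and Tac1. Cartpt had r of 0.09 with Cck and 0.08 with Pdyn, and Gal had negative r with each of the other 8 tested members, from -0.11 with Cck to -0.75 with Penk. These values describe 12 arrays that share a reference, slides and groups. By the same measure, the genes most like Sst over the 16912 tested genes with a symbol included Pde2a (0.98), Dscam (0.98), Insyn2b and B3gat1. Those most like Npy were Fxyd6 (0.99), Amph, Gkn1, Spef2 and Grm7, and those most like Tac1 were Gabra2 (0.98), Syt5, Gria1, Trank1 and Lingo2. For Penk they were Gpam (0.97), Rab12, Man1c1, Tmem47 and Crtc3, and for Cck P4htm (0.96), Peli2, Abcb9, Rap1gap and Auh. Pdyn was less closely matched, by Smad9 (0.93), Gm6145, Nkx2-2, Trpc5 and Bmpr1b, as was Cartpt by 1700039I01Rik (0.94), Gm13570, Ret, Hnrnph1 and Hes3.

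Most of the listed genes that process and store neuropeptides were called higher at step 5. Of 20 genes for prohormone processing and dense-core vesicles, 15 were higher and 0 lower in enriched than in control cells at step 5, and 7 were higher and 0 lower at step 4. Over all genes 20.3% were called higher and 20.2% lower at step 5, and 15.0% and 16.2% at step 4. The lists, like the members, were chosen with earlier results of these data known, so such contrasts are no independent test. The median log2 difference of the list was 1.51 at step 5 and 0.81 at step 4, against -0.01 and 0.01 for all genes. At step 5 the largest were Cadps, which primes dense-core vesicles (2.95, adjusted p = 0.00486), Scg3, a granin-binding vesicle protein (2.89, 0.00438), Cpe, carboxypeptidase E (2.73, 0.00201), and Cplx1, a regulator of vesicle fusion (2.39, 0.00115). At step 4 they were Cadps (2.41, 0.0178), Scg3 (2.04, 0.0296), Cpe (1.83, 0.0199) and Chgb, a granin (1.58, 0.0387). Scg3 averaged 5.32 ± 0.14 in step 5 enriched cells and 2.42 ± 0.83 in step 5 control cells (SD, n = 3 each). The genes of this list not called at step 5 were Pcsk1, Scg2, Vgf, Ptprn2 and Pam, among which Pcsk1, a main convertase of these precursors, was at 0.48 (adjusted p = 0.135). Between the steps in enriched cells, Cplx1 alone was called (1.67, adjusted p = 0.0326), or 3 of 20 with the slide as a block.

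Receptors of the member peptides were tested for 17 of 25 genes. At step 5, 6 were higher and 1 lower in enriched than in control cells, against 20.3% and 20.2% of all genes, with a median of 0.19. They were led by Sstr1, a somatostatin receptor (1.58, adjusted p = 0.00309), Npy1r (1.34, 0.00213), a receptor of NPY, and Crhr1, the main CRH receptor (0.70, 0.00337). Npy2r, another NPY receptor, was at least 1.63-fold higher (adjusted p = 0.00491), a bound because 0 of 3 step 5 control arrays were well above background. Npy2r passed the filter only through step 5 enriched cells, so its test and call are not independent of a higher signal there. Sstr1 averaged 1.91 ± 0.33 in step 5 enriched cells and 0.33 ± 0.30 in step 5 control cells (SD, n = 3 each). At step 4, Npy1r was higher (0.76, adjusted p = 0.0403), and Galr2, a galanin receptor (-0.59, 0.012), and Sstr4 (-0.31, 0.0277) were lower. These 1 higher and 2 lower of 17 are smaller shares than the 15.0% and 16.2% of all genes. With the slide as a block, 5 receptors were higher and 2 lower at step 4, and 2 were higher at step 5 than at step 4 in enriched cells, against 0 without it. The 8 not tested were Npy5r, Npy6r, Cckar, Tacr3, Oprd1, Oprk1, Galr1 and Galr3, among them the delta and kappa opioid receptors for the products of Penk and Pdyn.

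The other neuropeptide precursors gave no shift in common. Of 43 genes 32 were tested, with 2 higher and 4 lower in enriched than in control cells at step 5, 1 higher and 5 lower at step 4, and medians of -0.04 and -0.07. These shares lie below those of all genes. With the slide as a block, 2 were higher at step 4. Calca, the gene of calcitonin and CGRP, fell by 3.28 on the log2 scale at step 5 (adjusted p = 0.00211) and by 4.01 at step 4 (adjusted p = 0.00128). It averaged -2.64 ± 1.28 in step 5 enriched and 0.64 ± 0.29 in step 5 control cells, and -2.78 ± 1.00 in step 4 enriched and 1.23 ± 0.33 in step 4 control cells (SD, n = 3 each), so control cells were above mESC and enriched cells below. Agrp, the agouti-related peptide, fell by 1.28 at step 4 (adjusted p = 0.000269), as did Rln3 by 0.67 (0.0232) and Cort, the cortistatin gene, by 0.67 (0.0442). At step 5, Kiss1, the kisspeptin gene, fell by 1.17 (adjusted p = 0.003), while Nppc, C-type natriuretic peptide (1.51, 0.00679), and Pnoc, the nociceptin precursor (1.16, 0.0316), rose. In enriched cells, Nmb, neuromedin B, was higher at step 5 than at step 4 (0.95, adjusted p = 0.0127), or 2 genes with the slide as a block.

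Factors and enzymes of peptidergic and GABAergic forebrain neurons were higher in enriched than in control cells for 13 of 19 tested genes at step 5 and for 5 at step 4 (8 with the slide as a block), with 0 lower at either. Among all genes, 20.3% were called higher and 20.2% lower at step 5, and 15.0% and 16.2% at step 4 (19.8% higher with the slide as a block). The list has 22 genes, and its medians were 1.41 and 1.56. At step 5 Gad1, which makes GABA (3.55, adjusted p = 0.0121), Slc32a1, the vesicular GABA transporter (3.19, 0.0315), and Dlx2 (3.00, 0.0121) were among the largest. At step 4 Dlx2 (2.39, 0.0409), Dlx1 (2.24, 0.018), Six6 (1.96, 0.00666) and Nkx2-1 (1.82, 0.00443), patterning factors of the ventral forebrain and hypothalamus, led. Fos averaged 2.78 ± 0.26 in step 5 enriched and -0.03 ± 0.39 in step 4 enriched cells (SD, n = 3 each), a difference of 2.81 (adjusted p = 0.00367). What raised Fos was not tested, and the labels do not say when the step 5 cells were sorted. Six6 was lower at step 5 in the same comparison (-1.59, adjusted p = 0.0496). Lhx6, a factor of interneurons that make somatostatin, was at -0.32 at step 5 (adjusted p = 0.203).

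**Figure D5:**
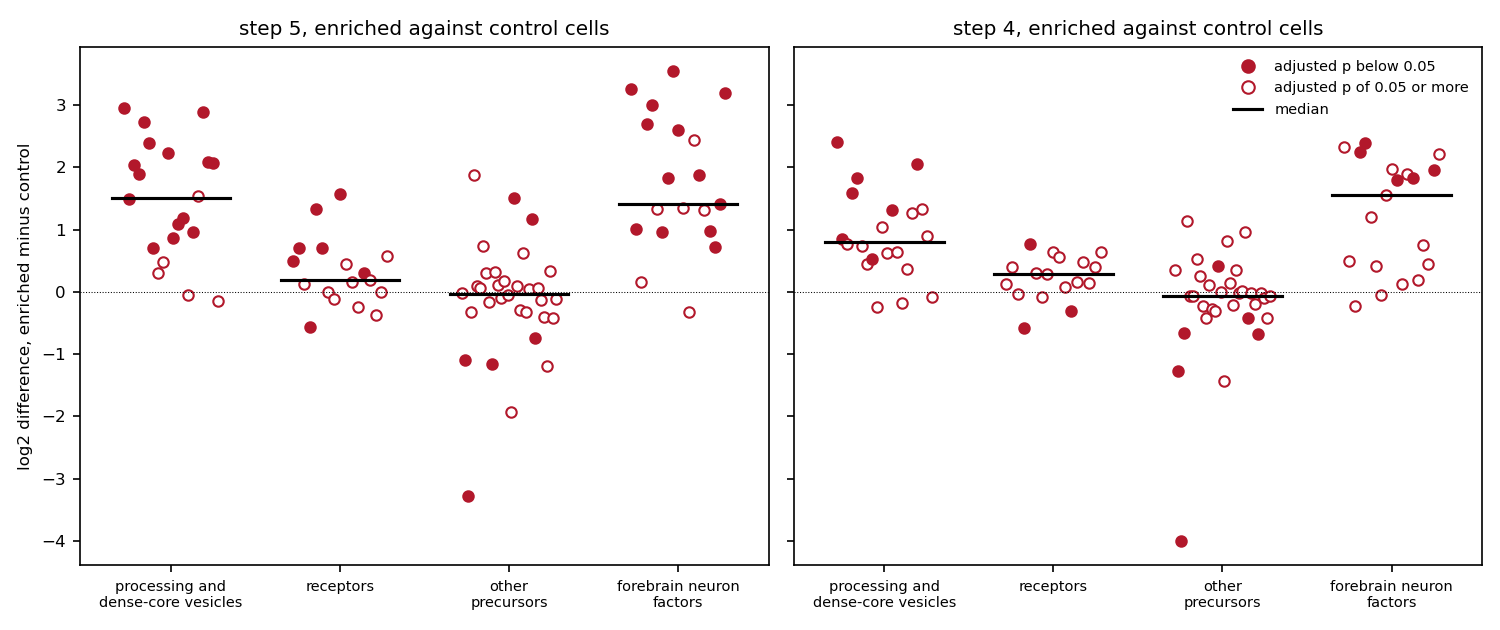
Log2 difference of enriched minus control cells for each tested gene of 4 lists, at step 5 (left) and step 4 (right). Filled points have an adjusted p below 0.05 and bars mark the median, which is 1.51 at step 5 for the genes of peptide processing and dense-core vesicles and -0.04 for the other precursors.

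Markers of other cell types moved in the same comparisons, and their part in the members' results was not tested. Among all genes, 20.3% were called higher and 20.2% lower at step 5, and 15.0% and 16.2% at step 4 (19.8% higher with the slide as a block). All 7 pluripotency markers were lower in enriched than in control cells at both steps, with summed Cy5 signals of 11122 to 33685 in step 5 enriched, 121335 to 158682 in step 5 control, 12242 to 26603 in step 4 enriched and 89515 to 163388 in step 4 control cells. Of 7 astrocyte markers 5 were higher at step 5, with sums of 47665 to 143296 in enriched and 5054 to 34680 in control cells, and 0 were called at step 4 (1 with the slide as a block), where sums were 11435 to 27315 in enriched and 4229 to 7102 in control cells. Of 7 oligodendrocyte markers 3 were higher at step 5, with sums of 43628 to 60793 in enriched and 6814 to 11019 in control cells. At step 4, 0 were called (1 with the slide as a block), and sums were 6703 to 11349 in enriched and 3328 to 7363 in control cells. Of the neuron markers, 9 were higher at step 5, and 2 were higher at step 4 (6 with the slide as a block).

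Tissues outside the brain also make several of these peptides, and their markers were measured too. Beside their counts stand the shares of all genes, 20.3% higher and 20.2% lower at step 5, and 15.0% and 16.2% at step 4. Of 7 sympathoadrenal markers, Dbh had no group with Cy5 well above background on all of its arrays, and was not tested. Of the 6 tested, 0 were higher and 1 lower at each step, Gata3 at step 5 (-1.47, adjusted p = 0.0221) and Phox2a at step 4 (-1.60, 0.0133). With the slide as a block, 1 was higher and 2 lower at step 5, and 2 were higher and 1 lower at step 4. Their sums were 2667 to 3706 in step 5 enriched, 2148 to 3782 in step 5 control, 3745 to 6856 in step 4 enriched and 2196 to 4518 in step 4 control cells. Of 8 endoderm and enteroendocrine markers, Pax4 was not tested for the same reason, and Afp alone was called, lower at step 5 (-3.33, adjusted p = 0.0485). With the slide as a block, 5 were lower at step 5 and 4 at step 4. Their sums were 566 to 4911 in step 5 enriched, 1315 to 32747 in step 5 control, 431 to 5809 in step 4 enriched and 1006 to 13839 in step 4 control cells. Of 7 mesenchymal markers, Col3a1 was higher at step 4 (1.03, adjusted p = 0.0436; 2 genes with the slide as a block) and none was called at step 5. Their sums were 243548 to 365711 in step 5 enriched, 102497 to 390277 in step 5 control, 39005 to 178800 in step 4 enriched and 26498 to 53889 in step 4 control cells.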

How the data were processed

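RNA of 12 samples (100 ng each, per the labels) was hybridised with mESC RNA on Agilent 2-colour arrays, with 0 dye swaps. The deposited scanner files hold mean and background intensity per spot and a processed log ratio in log10, read with Feature Extraction 10.7.3.1 (slides 1 and 3) or 10.5.1.1 (slide 2), per the file headers. The deposited table is in log2. It equalled the scanner log ratio for 99.31 to 99.46% of probes, and how it was made is not given in the sources used here. The files' design gives positions on mm9.

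In R 4.3.3 with limma 3.58.1, background was corrected by normexp (offset 50) and arrays normalized by loess. Control and outlier spots were left out, spots of a probe averaged, and the brightest probe stood for a gene. Probes were named through RefSeq's GRCm38.p6 genes: an accession named 26581, a further accession 100, the symbol 2535 and a synonym 474, and 9739 stayed unnamed. A linear model on 4 group means (eBayes, two-sided, Benjamini-Hochberg over 22320 genes, or 18063 against mESC with Cy3 well above background on all 12 arrays) used an adjusted p below 0.05. Intervals are at 95%.

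Replicate number and slide coincide. Deviations from group means correlated for every same-numbered pair compared (0.13 to 0.75), so the slide as a block is printed where it changed a member's call or moved a count of list genes called by over 1.5 times.

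The members and lists were chosen with earlier results of these data known. All 10 members are named, with up to 4 called genes of largest difference per list and comparison and the 5 genes of highest r for members called between groups. Some genes that this rule selects are not reported here. Pcsk1, Lhx6 and the list genes given as not called or not tested were named after their values were seen. Alternatives numbered 23.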

Additional observations from a re-analysis of the deposited data

How the results depend on the processing

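Counts of members called depended on the scaling and on slide 2. Quantile-normalized ratios gave 1 member at step 5, Npy (1.23, adjusted p = 0.0471), 0 at step 4 and 0 between the steps in enriched cells, where Penk was at 0.82 at step 5 and 0.90 at step 4 and Cartpt at -0.81 at step 5. They called 2761 genes at step 5, 1573 at step 4 (585 higher and 988 lower, against 3340 and 3610 with loess), 100 between the steps in enriched cells (74 and 26, against 883 and 550) and 154 in control cells. Without slide 2, 1 member was called at step 5, 1 at step 4 and 0 between the steps in enriched cells, with 5769, 3018 (1006 higher and 2012 lower) and 310 genes, and 81 genes in control cells. Without both slide 2 control arrays, 3 members were called at step 5 and 1 at step 4, with 7846 and 5498 genes. That fit also called 184 genes between the steps in control cells and 9 for the difference between enrichment effects. Both of these alternatives were chosen after seeing the data. The deposited log2 values gave 1 member at step 4, 0 between the steps in enriched cells, 2 genes in control cells and 1 for the difference of effects, and an offset of 16 gave 0 members between the steps in enriched cells. Array weights called 3019 genes between the steps in enriched cells, 717 in control cells and 17 for the difference of effects, for which Cy5 alone and the mean over probes each gave 8. The slide as a block gave 2 members and 2440 genes between the steps in enriched cells and 1 gene in control cells, and it changed no call of a member beyond those of Npy given above. The cause of these changes was not tested.

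Leaving out 1 array gave 4 to 6 members and 6839 to 9171 genes at step 5, and 1 to 5 members and 4341 to 7712 genes at step 4. It gave 0 to 1 members and 445 to 1764 genes between the steps in enriched cells, 0 to 408 genes in control cells and 0 to 16 for the difference of effects. Against mESC, 9 to 12 tests were called.

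Members changed sign only where they were not called. Pdyn at step 4 was at 0.081 in the deposited values and -0.29 to 0.12 without 1 array. Between the steps in control cells, the deposited values gave 0.37 for Npy, -0.004 for Gal, -0.032 for Cartpt and -0.14 for Crh, and Cy5 alone gave -0.049 for Gal. Without 1 array the ranges there were -0.24 to 0.18 for Npy, -0.43 to 0.18 for Sst, -0.061 to 0.69 for Tac1, -0.073 to 0.197 for Gal, -0.036 to 0.41 for Cartpt and -0.025 to 0.32 for Crh. For the difference of effects, Penk was at -0.086 with quantile-normalized ratios, -0.15 with array weights, -0.13 without both slide 2 control arrays, -0.13 without slide 2 and -0.22 to 0.47 without 1 array, and Crh at -0.12 to 0.86. Of 23 alternatives, step 5 calls were kept in 22 for Penk, 22 for Npy, 19 for Sst, 18 for Tac1, 17 for Cck and 13 for Pdyn. At step 4, Penk kept its call in 22 and Cartpt in 17, and Cck kept its call between the steps in enriched cells in 13.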
